A study of Mus musculus with 6 samples.

Results

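Kit, a receptor tyrosine kinase of epithelial progenitors, and 9 genes of the fibroblast growth factor (FGF) pathway were followed in the submandibular gland, a salivary gland that branches from an epithelial bud. The genes were taken by symbol from the deposited table, in which all 10 of 10 were found among 24067 genes. They are Kit, the receptor Fgfr1, the ligand Fgf1, the transcription factors Etv4 and Etv5, and the feedback inhibitors Spry1, Spry2, Spry4, Dusp6 and Spred1. Glands of the ICR strain were taken at embryonic day 13, and 3 libraries are labelled blebbistatin and 3 control. Blebbistatin inhibits non-muscle myosin II, the motor that contracts actin filaments. The labels state neither the dose, the time or the vehicle, nor how many glands were pooled, nor a genotype beyond the strain. Separate cultures or litters are not stated for libraries of the same group, so p-values measure the spread between libraries, which may be technical. The series title speaks of epithelial buds and the sample labels of the gland.

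In the developing gland, FGF10 and FGF7 from the mesenchyme bind FGFR2 on the epithelium, and FGFR1 is also present on bud cells. Activated receptors signal through the docking protein FRS2 and the RAS-ERK cascade, whose nuclear output includes the ETS family factors ETV4 and ETV5. The same signal induces its own brakes: Sprouty and SPRED proteins act on RAS and RAF, and the phosphatase DUSP6 inactivates ERK. KIT, bound by its ligand KITL, marks progenitors of the distal end buds, where KIT and FGFR2 signalling are known to act together.

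All 10 genes had a mean of at least 1 FPKM (fragments scaled to transcript length in kilobases and to the library total) and were among the 11540 genes tested. Depth was estimated from the step that a single fragment makes in low values, at 27800000 to 33900000 fragments per library. At that depth the smallest Kit value rested on about 789 fragments and the smallest Spry4 value on about 622, so counting error was about 3.56% and 4.01% of those values. Epcam, an adhesion molecule of all epithelia, lay between 371 and 444 FPKM, whereas the mesenchymal ligand Fgf10 reached at most 0.0786 FPKM. Of 7 mesenchymal markers, the collagens, platelet-derived growth factor receptors and Twist2 reached at most 7.26 FPKM (Col3a1 in control replicate 1), while Vim lay between 328 and 370.4 FPKM in blebbistatin libraries and between 276 and 337 in controls. The summed level of these 7 was 334 to 374 FPKM under blebbistatin and 280.3 to 353 in controls. Kit is also known from mast cells, melanoblasts and blood progenitors. Of 7 mast cell genes 6 were listed at 0 in all libraries, and no melanoblast gene exceeded 1.31 FPKM. Mitf lay between 0.283 and 0.304 FPKM in blebbistatin libraries and between 0.412 and 0.656 in controls. Pmel lay between 0.971 and 1.09 FPKM and between 1.11 and 1.31. The melanoblast genes Dct, Tyr, Tyrp1 and Mlana were not lower in all blebbistatin libraries, and the part of melanoblasts in the results was not tested. The summed level of 4 erythroid genes, chiefly the globin Hba-a1, ranged from 0.996 to 54.9 FPKM in blebbistatin libraries and from 1.64 to 166 in controls, and its part in the results was not tested. The control with the highest Kit value, replicate 2, had the lowest erythroid sum of its group. So did the blebbistatin library with the lowest Kit value, replicate 1. Summed levels of the 4 end bud markers (Sox10, Sox9, Aqp5 and Cldn10) ranged from 326 to 379 FPKM in blebbistatin libraries and from 458 to 512 in controls. Aqp5, a water channel of acinar cells, reached at most 1.59 FPKM. Of the 4, only Sox9 overlapped between groups, at 37.1 to 50.1 FPKM under blebbistatin and 37.8 to 57.8 in controls. The part of the difference in the sum in the results on Kit, Etv4 and Etv5 was not tested. Sums of the 4 general epithelial markers overlapped, at 1035 to 1250 FPKM in blebbistatin libraries and 1112 to 1402 in controls. In bulk RNA, fewer end bud cells and less RNA per cell cannot be told apart.

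Kit had the largest difference of the 10 genes on the log2 scale. It stood at 5.38, 16.3 and 16.2 FPKM in blebbistatin replicates 1 to 3, against 21.5, 36.4 and 32.6 FPKM in control replicates 1 to 3. Every blebbistatin library lay below every control, and blebbistatin replicate 1 lay far below the others of its group. The means were 12.6 ± 6.28 FPKM under blebbistatin and 30.1 ± 7.75 FPKM in controls (SD, n = 3), a ratio of 0.419. The log2 fold change was -1.30 ± 0.38 (SE; 95% interval -2.16 to -0.43), blebbistatin minus control on the log2(FPKM + 1) scale, with a limma adjusted p of 0.259. Kit did not pass the threshold of 0.05. By the unadjusted limma p of 0.00857 it ranked 377 of 11540 genes. The value leaned on blebbistatin replicate 1: without that library the log2 fold change was -0.82 (limma unadjusted p = 0.00452, adjusted p = 0.294).

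Of the 10 genes, 0 passed an adjusted p of 0.05 (limma), where 0.078% of all tested genes did. At an unadjusted limma p under 0.05 there were 3, Kit and Etv5 with lower and Fgf1 with higher means under blebbistatin, against a background of 9.36% of tested genes (4.9% lower and 4.46% higher). The groups did not overlap for 5, namely Kit, Etv4 and Etv5 (lower) and Fgf1 and Spry1 (higher), against 14.3% of tested genes (6.8% lower and 7.48% higher). The median log2 fold change of the 10 was -0.12 and that of all tested genes 0.01. Leaving out 1 library moved the median of the 10 between -0.20, without blebbistatin replicate 2, and -0.02, without blebbistatin replicate 1. The members were chosen with results of these data known, so neither count is a test of the pathway.

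**Figure D1:**
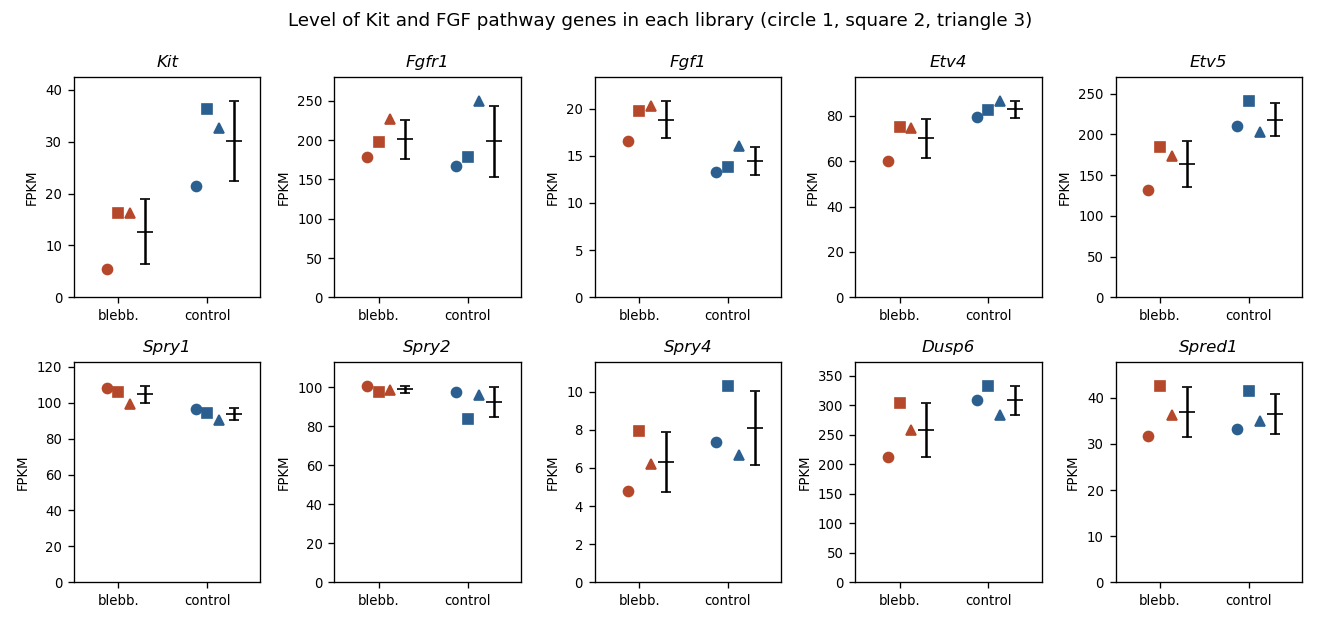
FPKM (vertical axes, from 0) of each of the 10 genes in the 3 blebbistatin libraries (left, red) and the 3 control libraries (right, blue), with the mean and SD beside each group. Kit, Etv4 and Etv5 lie lower in all blebbistatin libraries, Fgf1 and Spry1 lie higher, and the groups of the other 5 genes overlap.

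The deposited annotation gives Kit (chromosome 5, 75574987 to 75656721 on mm10, plus strand) 2 transcripts that differ in coding sequence by 12 bases, or 4 codons, at an alternative splice donor. The longer exon ends at 75639158 and the shorter at 75639146, in the part of the receptor just outside the membrane. Both forms are printed below because the table resolves them. Capitals mark the extra bases, and 24 bases of the flanking exons stand in lower case (GENCODE M21 transcripts, GRCm38, chr5:75639123-75640516, plus strand, intron removed).
Kit longer form: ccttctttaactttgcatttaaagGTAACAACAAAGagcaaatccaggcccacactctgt
Kit shorter form: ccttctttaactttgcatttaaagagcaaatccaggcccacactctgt

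Both Kit forms lay lower in all blebbistatin libraries than in all controls, with mean ratios of 0.415 for the longer and 0.421 for the shorter. The longer form stood at 2.60, 5.82 and 4.91 FPKM in blebbistatin libraries, against 10.1, 12.2 and 9.77 FPKM in controls, and the groups did not overlap. Its log2 fold change was -1.15 ± 0.23 (SE; limma unadjusted p = 0.00132, adjusted p = 0.212 over 14460 transcripts). The shorter form stood at 2.78, 10.5 and 11.3 FPKM in blebbistatin libraries, against 11.4, 24.1 and 22.8 FPKM in controls. Here the highest blebbistatin library and the lowest control almost met (log2 fold change -1.26 ± 0.48, SE; limma unadjusted p = 0.0309, adjusted p = 0.518). Without blebbistatin replicate 1 the shorter form was at -0.71 (limma unadjusted p = 0.0532), and the unadjusted p was also above 0.05 without control replicate 2 or 3. Among all transcripts, 8.08% had an unadjusted p under 0.05 and 0.00692% an adjusted p under 0.05, and groups did not overlap for 13.3%.

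The share of the longer form in Kit FPKM was 48.3%, 35.6% and 30.3% in blebbistatin replicates 1 to 3, against 47.1%, 33.7% and 30.0% in control replicates 1 to 3. The groups overlapped almost fully (difference on the arcsine scale 0.01, 95% interval -0.14 to 0.17, limma adjusted p = 1.00). Of all 4997 shares tested, 4.56% had an unadjusted p under 0.05, 0% an adjusted p under 0.05 (limma), and groups did not overlap for 9.37%. Libraries with the same replicate number differed by 1.28, 1.95 and 0.357 percentage points, while libraries of 1 group spanned far more. The forms share all other coding bases, so their split rests on the authors' transcript model and on fragments over the 12 bases.

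**Figure D2:**
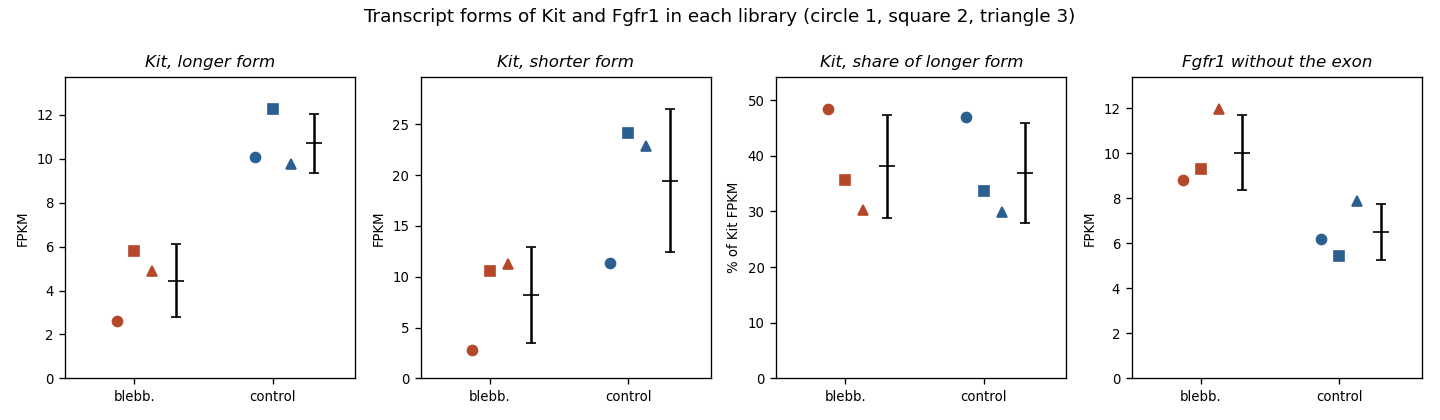
Level in FPKM of the longer and shorter Kit forms, the share of the longer form in percent of Kit FPKM, and the level in FPKM of the Fgfr1 form that lacks an exon, in blebbistatin libraries (left, red) and controls (right, blue) with mean and SD. Both Kit forms are lower under blebbistatin while the share overlaps, and the Fgfr1 form lies between 8.83 and 11.9 FPKM under blebbistatin, above all controls.

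No difference was detected in the ligand of KIT. Kitl stood at 19.0, 24.7 and 27.8 FPKM in blebbistatin libraries, against 18.8, 21.8 and 24.6 FPKM in controls, and the groups overlapped (log2 fold change 0.12 ± 0.15, SE; 95% interval -0.23 to 0.47; limma adjusted p = 0.980). The ratio of Kit to Kitl within a library was 0.283, 0.662 and 0.582 under blebbistatin, against 1.14, 1.67 and 1.33 in controls. The groups did not overlap (two-sided exact permutation p = 0.1, the smallest that 3 libraries against 3 can give). Relative to Sox10, a transcription factor of end buds, Kit stood at 0.0446, 0.103 and 0.107 under blebbistatin, against 0.1002, 0.169 and 0.159 in controls, and these ranges overlapped (exact permutation p = 0.3). Sox10 itself stood at 121, 158 and 152 FPKM in blebbistatin libraries, against 214, 216 and 206 FPKM in controls.

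Fgfr1 (chromosome 8, 25518759 to 25575718, plus strand), the receptor tyrosine kinase, is also known from bud epithelium. It stood at 178, 197 and 227 FPKM in blebbistatin libraries, against 167, 178 and 250.1 FPKM in controls, and the groups overlapped. Means were 201 ± 24.6 FPKM under blebbistatin and 198 ± 45.2 FPKM in controls (SD, n = 3), with a log2 fold change of 0.04 (95% interval -0.35 to 0.42; limma adjusted p = 0.999). Replicate 3 was the highest library of both groups. The sign turned negative without control replicate 1 or 2, without blebbistatin replicate 3, and with array weights.

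Of 3 annotated Fgfr1 forms, the least abundant was higher in all blebbistatin libraries. This form lacks an exon of 267 bases (25555508 to 25555774), which is coding, adds 89 codons and belongs to the first immunoglobulin-like domain of the receptor. It stood at 8.83, 9.32 and 11.9 FPKM in blebbistatin libraries, against 6.19, 5.42 and 7.87 FPKM in controls. The log2 fold change was 0.56 ± 0.16 (SE; limma unadjusted p = 0.00809, adjusted p = 0.358), so the call did not pass. Its share of Fgfr1 was 4.95%, 4.72% and 5.26% under blebbistatin, against 3.71%, 3.04% and 3.15% in controls, below the mean share of 5% needed for the share test. The other 2 forms differ by 6 bases at a splice donor and overlapped between groups. An exon of the non-coding gene Gm16159 on the opposite strand covers 125 bases of the 267, and since the labels do not say whether reads kept strand, some fragments may be shared. Gm16159 lay between 0.541 and 1.15 FPKM in blebbistatin libraries and between 1.14 and 1.56 in controls. The exons of the other 9 genes overlapped none of other genes in the annotation that came with the table.

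The exon that separates the Fgfr1 forms is shown in capitals with 16 bases of the neighbouring exons in lower case, followed by the junction formed when it is skipped (GENCODE M21 transcripts, GRCm38, chr8:25532413-25557746, plus strand, introns removed).
Fgfr1 with the exon: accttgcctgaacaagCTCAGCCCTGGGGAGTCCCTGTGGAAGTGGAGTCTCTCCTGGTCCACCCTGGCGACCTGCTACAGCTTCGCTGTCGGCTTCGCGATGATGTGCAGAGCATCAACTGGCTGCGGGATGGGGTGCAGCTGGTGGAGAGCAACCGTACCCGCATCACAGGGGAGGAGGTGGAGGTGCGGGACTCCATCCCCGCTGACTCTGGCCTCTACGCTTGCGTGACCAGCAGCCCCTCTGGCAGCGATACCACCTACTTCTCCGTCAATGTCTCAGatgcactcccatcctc
Fgfr1 without the exon: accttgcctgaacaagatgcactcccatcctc

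Fgf1, a ligand that binds all FGF receptors, had the largest positive difference of the 10 on the log2 scale. It stood at 16.6, 19.7 and 20.2 FPKM in blebbistatin libraries, against 13.3, 13.8 and 16.1 FPKM in controls. All blebbistatin libraries lay above all controls, though the lowest of them exceeded the highest control only narrowly. The log2 fold change was 0.36 ± 0.11 (SE; 95% interval 0.11 to 0.62; limma unadjusted p = 0.0102, adjusted p = 0.275), and Fgf1 did not pass. The unadjusted p stayed under 0.05 in all 15 alternative settings. Fgf1 (38838673 to 38918699) and Spry4 (38586265 to 38601268) are neighbours on chromosome 18, both on the minus strand and 237 kb apart, and their mean differences had opposite signs.

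Etv5 and Etv4, ETS factors that FGF signalling induces in branching epithelia, both had lower means under blebbistatin. Etv5 (chromosome 16, 22381313 to 22439570, minus strand) stood at 132, 185 and 174 FPKM in blebbistatin libraries, against 211, 241 and 202 FPKM in controls. The groups did not overlap, and blebbistatin replicate 1 was again the lowest. The log2 fold change was -0.43 ± 0.14 (SE; 95% interval -0.76 to -0.09; limma unadjusted p = 0.0179, adjusted p = 0.342). Without blebbistatin replicate 1 it was -0.28 (limma unadjusted p = 0.0589).

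Etv4 (chromosome 11, 101769742 to 101785310, minus strand) stood at 60.4, 75.3 and 74.9 FPKM in blebbistatin libraries, against 79.4, 82.5 and 86.7 FPKM in controls. Again all blebbistatin libraries lay below all controls. The log2 fold change was -0.24 ± 0.11 (SE; limma unadjusted p = 0.0564, adjusted p = 0.556), and -0.14 without blebbistatin replicate 1. Etv5 was the more abundant of the pair in every library: its ratio to Etv4 was 2.18, 2.45 and 2.32 under blebbistatin, against 2.65, 2.92 and 2.33 in controls (exact permutation p = 0.2).

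The feedback inhibitors had mean differences in both directions, and 0 of 5 passed (limma). Dusp6, the ERK phosphatase (chromosome 10, 99263231 to 99267489, plus strand), was the most abundant of the 10 genes. It stood at 212, 305 and 259 FPKM in blebbistatin libraries, against 309, 333 and 284 FPKM in controls. Blebbistatin replicate 2 lay above control replicate 3, so the groups overlapped (log2 fold change -0.27 ± 0.14, SE; limma adjusted p = 0.678), and without blebbistatin replicate 1 the value was -0.13.

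Spry1 (chromosome 3, 37639950 to 37644599, plus strand), a Sprouty inhibitor, stood on the other side, at 108, 106 and 99.2 FPKM in blebbistatin libraries, against 96.6, 94.0 and 90.3 FPKM in controls. The groups did not overlap, by a small margin (log2 fold change 0.16 ± 0.09, SE; limma unadjusted p = 0.104, adjusted p = 0.691). Spry2 (chromosome 14, 105891947 to 105896819, minus strand), its close relative, stood at 101, 97.5 and 98.5 FPKM in blebbistatin libraries, against 97.6, 83.6 and 96.1 FPKM in controls. The groups overlapped (log2 fold change 0.10, 95% interval -0.12 to 0.31; limma adjusted p = 0.938).

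Spry4, of the same family, had the lowest level of the 10 genes. It stood at 4.78, 7.92 and 6.18 FPKM in blebbistatin libraries, against 7.34, 10.3 and 6.66 FPKM in controls. The groups overlapped (log2 fold change -0.32 ± 0.19, SE; limma adjusted p = 0.741), and the value was -0.16 without blebbistatin replicate 1 and -0.15 without control replicate 2. Spred1 (chromosome 2, 117121071 to 117182277, plus strand), which recruits the RAS regulator neurofibromin, stood at 31.8, 42.6 and 36.3 FPKM in blebbistatin libraries, against 33.2, 41.5 and 35.0 FPKM in controls. The groups were nearly superimposed (log2 fold change 0.01, 95% interval -0.29 to 0.31; limma adjusted p = 0.999), and the sign of this value changed with rescaling. Only 1 of its 2 annotated transcripts reached 1 FPKM, the one of 6317 bases.

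**Figure D3:**
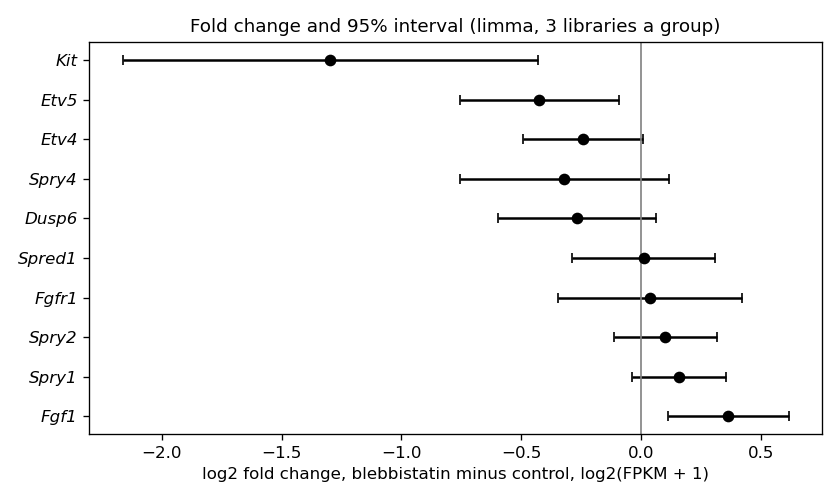
Log2 fold change of each gene (horizontal axis, blebbistatin minus control on the log2(FPKM + 1) scale), with points for the limma estimate and bars for its 95% interval, 3 libraries per group. The intervals of Kit, Etv5 and Fgf1 lie off 0, those of the other 7 genes include it, and no gene passed the adjusted threshold.

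Ratios taken inside each library, which do not depend on the scaling of libraries, were chosen after the values were seen. Etv5 relative to Spry1 was 1.21, 1.74 and 1.75 under blebbistatin, against 2.18, 2.57 and 2.24 in controls. Dusp6 relative to Spry1 was 1.96, 2.87 and 2.61 under blebbistatin, against 3.20, 3.54 and 3.14 in controls. In both the groups did not overlap (exact permutation p = 0.1 each). For Etv5 to Spry1 that outcome was fixed in advance, because Etv5 was lower and Spry1 higher in all blebbistatin libraries than in all controls. Over the 5 ratios computed, the adjusted exact permutation p was 0.167 for Etv5 to Spry1, Dusp6 to Spry1 and Kit to Kitl. It was 0.25 for Etv5 to Etv4 and 0.3 for Kit to Sox10.

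Among libraries, blebbistatin replicate 1 was the lowest for 6 of the 10 genes (Kit, Etv4, Etv5, Spry4, Dusp6 and Spred1) and the highest for Spry1 and Spry2. Control replicate 2 was the highest for 4 (Kit, Etv5, Spry4 and Dusp6). In that blebbistatin library the summed level of duct and basal keratins and Trp63 was 412 FPKM, the highest of the 6. Krt14 made up 236 FPKM of it. Krt14, Krt7 and Krt19 were highest in that library, whereas Krt5 was higher in control replicate 1 (33.5 against 30.2 FPKM). Trp63, at 44.5 FPKM there, was the lowest of the blebbistatin group. The sum ranged from 235 to 412 FPKM in blebbistatin libraries and from 229 to 327 in controls, and its part in the result was not tested.

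Levels per length ordered the genes in controls as Dusp6 (309 ± 24.6 FPKM, SD, n = 3), Etv5 (218 ± 20.4), Fgfr1 (198 ± 45.2), Spry1 (93.6 ± 3.16), Spry2 (92.4 ± 7.68), Etv4 (82.9 ± 3.65), Spred1 (36.5 ± 4.37), Kit (30.1 ± 7.75), Fgf1 (14.4 ± 1.46) and Spry4 (8.10 ± 1.94). Within 1 SD the neighbours Etv5 and Fgfr1, Spry1 and Spry2, Spry2 and Etv4, and Spred1 and Kit overlapped. In blebbistatin libraries Kit (12.6 ± 6.28 FPKM) stood below Fgf1 (18.8 ± 1.98), with SDs that overlapped slightly, whereas in controls it stood above.

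The genes whose pattern over the 6 libraries was most like that of Kit were Btbd3, Gne, Adamts14, Tfap2b and Ccdc160, with Pearson's r from 0.993 to 0.998. They were sought among 8793 genes with a mean of at least 5 FPKM, leaving out the 10 and without a test, since the 6 points include the difference between the groups. Gne, an enzyme of sialic acid synthesis, stood at 44.0, 67.9 and 73.3 FPKM in blebbistatin libraries, against 81.0, 99.5 and 94.5 FPKM in controls. Tfap2b, a transcription factor, stood at 24.1, 40.2 and 40.7 FPKM in blebbistatin libraries, against 45.0, 64.5 and 56.0 FPKM in controls. Both shared with Kit the low value of blebbistatin replicate 1 and the high value of control replicate 2. Of the other 9 genes, Etv4 (r = 0.978), Etv5 (0.956), Dusp6 (0.865) and Spry4 (0.801) followed Kit most closely over the 6 libraries, and Spry1 (-0.882) and Spry2 (-0.686) ran opposite to it.

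Apart from Fgf1, which is among the 10 genes, FGF ligands were scarce. Of 22 ligand genes 3 were tested, Fgf1, Fgf9 and Fgf20, and 0 passed (limma). Fgf20, of the FGF9 subfamily, stood at 0.417, 0.443 and 0.666 FPKM in blebbistatin libraries, against 2.18, 1.53 and 0.903 FPKM in controls, without overlap (log2 fold change -0.72 ± 0.19, SE; limma unadjusted p = 0.00506, adjusted p = 0.208). Its mean of 1.02 FPKM passed the filter only through the controls, so this difference rests in part on the filter. Fgf9 stood at 1.91, 2.86 and 2.61 FPKM in blebbistatin libraries, against 2.89, 3.29 and 3.00 FPKM in controls. The mesenchymal ligand Fgf7 stood at 1.49, 1.10 and 0.750 FPKM in blebbistatin libraries and 0.620, 0.804 and 0.700 in controls, under the filter on its mean.

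Of 7 receptor and co-receptor genes 4 were tested and 0 passed, with a median log2 fold change of 0.14. That median depended on the filter and on libraries, at -0.01 without a filter, 0.04 with a minimum of 5 FPKM and 0.23 without control replicate 3. Fgfr2, the receptor of FGF10 and FGF7, stood at 47.5, 40.5 and 44.0 FPKM in blebbistatin libraries, against 38.7, 35.1 and 37.3 FPKM in controls, without overlap (log2 fold change 0.24 ± 0.09, SE; limma unadjusted p = 0.0302, adjusted p = 0.427). Fgfr3 stood at 3.94, 2.42 and 3.40 FPKM in blebbistatin libraries, against 2.06, 1.70 and 2.32 FPKM in controls, also without overlap (log2 fold change 0.48 ± 0.15, SE; limma unadjusted p = 0.0138, adjusted p = 0.307). Fgfrl1, a receptor without a kinase domain, overlapped between groups (log2 fold change -0.05).

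The cascade between receptor and nucleus came next. Of 22 tested genes for docking proteins, RAS, RAF, MEK, ERK and RSK, 0 had a limma p under 0.05 in either direction, where 9.36% of all tested genes did, and the median log2 fold change was 0.02 with a range from -0.20 to 0.20. The smallest p were those of the RSK kinases Rps6ka1 (log2 fold change -0.20 ± 0.09, SE) and Rps6ka2 (0.20 ± 0.09) and of the phosphatase Ptpn11 (0.12 ± 0.09).

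Other transcripts that rise with ERK activity had mostly lower means. Of 11 tested, 7 had lower means under blebbistatin, where 5175 of all 11540 tested genes did. The median log2 fold change of the 11 was -0.13, and 0 passed (limma). With a minimum of 5 FPKM that median was -0.33. Leaving out blebbistatin replicate 3 gave -0.01, and leaving out control replicate 3 gave -0.24. An unadjusted limma p under 0.05 was seen for 3, all lower, where 4.9% of all tested genes were lower at that p. Dusp4, a nuclear phosphatase of ERK, stood at 9.22, 16.4 and 12.6 FPKM in blebbistatin libraries, against 19.6, 24.8 and 18.6 FPKM in controls (log2 fold change -0.70 ± 0.19, SE; limma unadjusted p = 0.00638, adjusted p = 0.224). Epha2, an ephrin receptor, stood at 37.0, 61.3 and 53.6 FPKM in blebbistatin libraries, against 71.0, 77.7 and 72.5 FPKM in controls (log2 fold change -0.56 ± 0.17, SE; limma unadjusted p = 0.0104, adjusted p = 0.277). Etv1, which belongs to the same subfamily as Etv4 and Etv5, stood at 5.35, 8.81 and 8.51 FPKM in blebbistatin libraries, against 8.06, 14.0 and 12.1 FPKM in controls, with overlap (log2 fold change -0.53 ± 0.22, SE; limma unadjusted p = 0.0424, adjusted p = 0.497). In all 3 genes blebbistatin replicate 1 was the lowest library. The immediate early genes Fos (0.34 ± 0.18, SE) and Egr1 (0.30 ± 0.29), named after their values were seen, had higher means on the log2 scale, and their groups overlapped.

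Of 12 tested negative regulators outside the 10 genes, 6 had higher and 6 lower means, with a median of -0.02, and 0 passed (limma). Dusp4, which is also on the previous list, was the 1 gene with an unadjusted p under 0.05, close to the 9.36% of all tested genes. Spred3 (-0.31 ± 0.18, SE) and Dusp7 (-0.15 ± 0.10) followed by p. Of 22 tested partners of KIT 0 passed (limma), 12 had higher and 10 lower means, and the median log2 fold change was 0.02. For both lists the background was 6365 higher and 5175 lower means among all 11540 tested genes. The adaptor Sh2b2 stood at 4.05, 4.65 and 3.24 FPKM in blebbistatin libraries, against 6.27, 5.47 and 4.94 FPKM in controls (log2 fold change -0.40 ± 0.13, SE; limma unadjusted p = 0.0146, adjusted p = 0.311). The SRC family kinase Fyn came next by p (-0.19 ± 0.09).

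**Figure D4:**
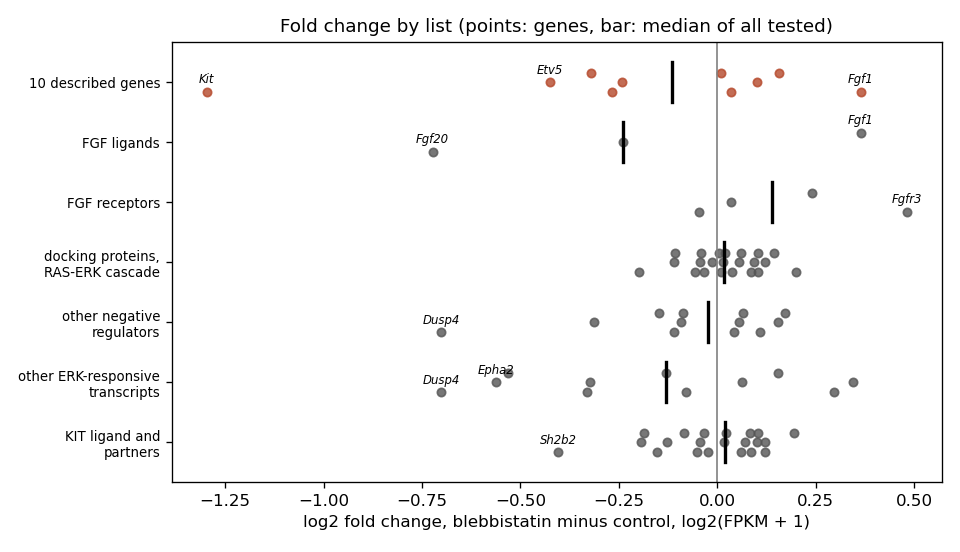
Log2 fold change (horizontal axis, blebbistatin minus control on the log2(FPKM + 1) scale) of the 10 genes described and of the tested genes in 6 lists of the FGF and KIT pathways, with a bar at the median of all tested. Each point is a gene, Fgf1 and Fgfr1 also appear in their lists, and 1 gene of the KIT list is left out. Kit stands farthest to the left at -1.30, Dusp4 and Epha2 lie to the left of their list, Fgf20 (which passed the filter only through the controls) lies left of the other ligands, and the cascade from docking proteins to RSK stays within 0.20 of 0.

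Upstream sequence from RefSeq (GRCm38.p6) was used for 6 of the 10 genes, and the 250 bases before the start are printed for 3 genes with lower means under blebbistatin (Kit, Etv5 and Dusp6) and for Spry1, whose mean was higher. They are given 5′ to 3′ on the strand of the gene. Capitals mark GGAA on either strand (TTCC on the printed one), the core that ETS factors recognise.
Kit, chr5:75574737-75574986, plus strand: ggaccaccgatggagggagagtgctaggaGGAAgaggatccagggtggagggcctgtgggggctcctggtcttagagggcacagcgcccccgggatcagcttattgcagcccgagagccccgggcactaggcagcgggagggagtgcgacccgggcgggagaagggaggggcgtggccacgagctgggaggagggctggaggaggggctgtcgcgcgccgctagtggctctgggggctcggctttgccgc
Etv5, chr16:22439571-22439820, minus strand: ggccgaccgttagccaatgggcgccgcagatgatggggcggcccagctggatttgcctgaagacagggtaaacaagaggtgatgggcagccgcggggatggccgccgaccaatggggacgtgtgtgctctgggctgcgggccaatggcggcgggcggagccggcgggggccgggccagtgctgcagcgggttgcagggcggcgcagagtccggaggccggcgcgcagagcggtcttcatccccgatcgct
Dusp6, chr10:99262981-99263230, plus strand: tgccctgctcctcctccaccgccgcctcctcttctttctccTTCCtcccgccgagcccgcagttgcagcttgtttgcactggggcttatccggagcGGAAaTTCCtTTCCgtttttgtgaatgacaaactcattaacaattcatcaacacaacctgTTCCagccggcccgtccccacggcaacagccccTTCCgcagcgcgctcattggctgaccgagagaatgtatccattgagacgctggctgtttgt
Spry1, chr3:37639697-37639946, plus strand: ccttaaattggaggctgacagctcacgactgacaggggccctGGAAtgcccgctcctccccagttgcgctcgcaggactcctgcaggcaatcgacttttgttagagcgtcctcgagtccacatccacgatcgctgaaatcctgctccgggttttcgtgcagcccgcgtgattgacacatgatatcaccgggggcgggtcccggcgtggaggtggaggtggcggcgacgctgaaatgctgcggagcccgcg

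The core occurred 6 times before Dusp6, 1 time before Kit, 1 time before Spry1 and 0 times before this start of Etv5, with 4 before a second annotated start. It occurs in 93.4% of 32851 upstream windows of the same length, so its presence sets none of these genes apart. The longer string CCGGAA, searched on both strands and containing the core, occurs in 12% of windows and in none of these 4. AGGAAG, searched likewise, occurs in 29.5% of windows, and here 1 time before Kit and 1 time before Dusp6. CAGGAA occurs in 25.7% of windows and in none of these 4, with 1 before the second start of Etv5. The content of G and C was 70.8% for Kit, 71.2% for Etv5, 56.4% for Dusp6 and 62.4% for Spry1. No window was used for Etv4, Fgfr1, Fgf1 and Spry4.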

How the data were processed

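RNA of 6 libraries, 3 blebbistatin and 3 control, was measured by sequencing, with the RNeasy and TruSeq RNA kits per the labels' protocols. TopHat2 2.0.13, Bowtie2 2.2.3, Cufflinks 2.2.1 and the build mm10 are named, per the submitters' processing notes. The authors deposited FPKM per gene and per transcript, per the file headers, and the gene value of each of the 10 genes is the sum of its transcripts. Strandedness is not stated. Columns named BB were read as blebbistatin and those without a number as replicate 1.

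FPKM is not a count, so log2(FPKM + 1) was tested with limma 3.58.1 in R 4.3.3 over all 11540 genes with a mean of at least 1 FPKM, with a trended prior, treatment as the only term and Benjamini-Hochberg adjustment at 0.05. Fold changes on this scale understate those of low genes. Transcripts with a mean of at least 1 FPKM (14460 of 33819) were tested likewise, and transcript shares on the arcsine square root scale for mean shares from 0.05 to 0.95 of genes whose mean summed FPKM reached 5 (4997 shares). The tests were tried on simulated data. For ratios within libraries the test was an exact permutation, two-sided, which cannot go below 0.1 here.

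The described genes and the lists were chosen with earlier results of these data known. Named beside the 10 genes are Fgfr2, Fgf10, Fgf7, Kitl, up to 3 genes of smallest p per list (1 of them is not reported here) and the 5 genes nearest to Kit by Pearson's r. Depth was estimated from single-fragment steps of single-transcript genes over 3000 bases long. It covers counting error only. In all, 15 other settings were run.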

Additional observations from a re-analysis of the deposited data

How the results depend on the processing

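The 15 other settings were 2 pseudocounts, 2 filters, 2 rescalings, array weights, a prior without trend, the replicate number as a block and each library left out in turn. In all 15, Kit, Etv4, Etv5, Spry4 and Dusp6 had lower and Fgf1, Spry1 and Spry2 higher means under blebbistatin. The unadjusted limma p of Kit and of Fgf1 was under 0.05 in all 15 and that of Etv5 in 13, the exceptions being without blebbistatin replicate 1 and without control replicate 2. The log2 fold change of Kit ranged from -1.54 to -0.82 with libraries left out, with limma adjusted p from 0.231 to 0.522. With a library left out the count past an adjusted p of 0.05 stayed 0. The count past an unadjusted limma p of 0.05 ranged from 2 to 5, with 5 without blebbistatin replicate 2. In the same fits the share of all tested genes under that unadjusted p also varied. It ranged from 7.37%, without blebbistatin replicate 2, to 10.8%, without control replicate 1.

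The replicate numbers were not taken as pairs, because the labels state no pairing and the deviations of same-numbered libraries correlated at 0.182, 0.0941 and 0.253, not all above 0.1. Each library did correlate best with its own number, which is a hint from the data and not from the design. With the replicate block 6 of the 10 genes had an unadjusted limma p under 0.05, where 16.3% of all tested genes did in that fit. Kit passed (log2 fold change -1.30, limma adjusted p = 0.0374), so 1 of the 10 genes passed, and 144 of all tested genes did (1.25%). Etv1 was the 1 other listed gene to pass (limma adjusted p = 0.0371).

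Near 0, signs changed. Spred1 was at -0.00095 after median-of-ratios rescaling and -0.0094 after quantile normalization, and from -0.096 to 0.11 with libraries left out. Fgfr1 was at -0.038 with array weights and from -0.078 to 0.21 with libraries left out. The Fgfr1 form shorter by 6 bases was at 5.7e-05 with a pseudocount of 0.1 and from -0.14 to 0.21 with libraries left out, and the longest form ranged from -0.086 to 0.18. On the arcsine scale, shares ranged from -0.040 to 0.065 for the longer Kit form, from -0.065 to 0.040 for the shorter, and from -0.016 to 0.00050 and -0.018 to 0.00041 for these Fgfr1 forms. The medians of the negative regulators (-0.073 to 0.054) and KIT partners (-0.029 to 0.043) also changed sign with libraries left out. The cause was not tested.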
